A study of Mus musculus with 90 samples.

Results

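Melanoma allografts that kept growing under an antibody against PD-L1 were compared directly with allografts that received a control antibody. The arrays were chosen by label alone: 14 NonResponder arrays and 14 control IgG arrays, 28 of the 90 in the series, all from the larger of the ranges into which the sample titles fall (53 arrays). Every tumour was a subcutaneous melanoma with an Hgf transgene and the R24C change in both copies of Cdk4, in the mouse strain B6.cBrd. NonResponder tumours received a mouse IgG1 against mouse PD-L1 at 10 mg/kg, and control tumours a mouse IgG1 that lacks this target at the same dose. Both antibodies carry the D265A change, which weakens binding to Fc receptors, and both were given in PBS. Set beside these groups at some points are 2 others of the same title range. They are tumours that regressed under the same antibody (Responder, 17 arrays) and tumours labelled PBS at 10 ml/kg (3 arrays). A tumour counted as NonResponder when its growth progressed, and it was taken at time points matched to those of regressing tumours, which were harvested after 2 to 12 doses. Control IgG tumours were taken at several time points, and the sources used here give neither time nor volume for a single tumour. The promoter of the transgene and the number of donor tumours behind the allografts are likewise not given there. Separate mice for separate arrays are not stated in the labels, so the p-values cover the spread between these samples, which may be technical.

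PD-L1, encoded by Cd274, sits on tumour and myeloid cells and engages the receptor PD-1, encoded by Pdcd1, on activated T cells, which dampens their response. Interferon gamma released by T cells induces Cd274 together with class I and class II antigen presentation genes. Neutrophils and inflammatory macrophages release interleukin 1, prostaglandins and chemokines, and fibroblasts lay down the collagen matrix in which the tumour grows.

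The comparison gave 0 genes under 0.05 in limma after Benjamini-Hochberg adjustment (0% of 18193 genes; smallest adjusted p = 0.829), and 757 genes at an unadjusted p under 0.05 (4.16%). What stood apart most in size was one-sided: all 22 genes with a difference above 1 on the log2 scale were lower in NonResponder tumours. They were Serpinb2, the granulocyte calcium-binding genes S100a8 and S100a9, the chemokines Ppbp, Cxcl2, Cxcl3, Cxcl5, Ccl6 and Cxcl12, the chemokine scavenger Ackr3, the cyclooxygenase Ptgs2, the acute phase gene Saa3, the macrophage genes Mmp12 and Arg1, the clotting factor F13a1, the mucin-like glycoprotein Pdpn, the matrix genes Lox, Dcn, Col3a1, Cthrc1 and Sfrp2, and Tmem45a. This set was chosen by its values, and none of its members passed the test. List medians of T cell, interferon and antigen presentation genes lay close to the control IgG level once 1 NonResponder array was set aside.

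That array, NonResponder 14, was the only one of the 28 with a Glycam1 value of 8 or more on the log2 scale. Glycam1 encodes a mucin of lymph node venules; it read 11.9 there and between 4.02 and 4.85 on the other 27 arrays. The mean correlation of NonResponder 14 with the other arrays was 0.917, against at least 0.964 for every other array, and its value for the pigment granule gene Pmel was 8.42. The comparison was therefore fitted with all 14 NonResponder arrays and again with 13. A difference printed alone, with no mention of a left-out array, is from all 14 and was not shown without NonResponder 14. Control IgG 7, the array at 0.964, was kept in both fits. The muscle enzyme Ckm read 10 or more on 3 control IgG and 4 NonResponder arrays. No pair of arrays was identical, and array medians lay between 6.86 and 7.17. The pigment enzyme Tyrp1, a melanocyte marker, had a median of 13.6 in both groups, and Dct, another, had a median of 14.2 in both. Precision is limited by the number of arrays: the median 95% interval of a gene's difference reached 0.17 to either side on the log2 scale, and its 90th percentile was 0.39.

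The upstream sequences of 4 genes are shown, chosen after their values were seen: Serpinb2, which had the largest difference of all genes, Ppbp and Il1b, which had the largest difference and the smallest p of the inflammatory cytokine list, and Car9, a gene switched on in oxygen-poor tissue. Each run is the 250 bases before a RefSeq start site (GRCm38.p6), 5′ to 3′ on the gene's strand; Serpinb2 has 2 such sites in the table, and the upstream one is shown. Capitals mark matches to TGANTCA (the AP-1 motif, both strands), TATAAA (the TATA box, gene's strand only) and ACGTG (the core of the hypoxia response element, both strands).
Serpinb2, chr1:107511173-107511422, plus strand: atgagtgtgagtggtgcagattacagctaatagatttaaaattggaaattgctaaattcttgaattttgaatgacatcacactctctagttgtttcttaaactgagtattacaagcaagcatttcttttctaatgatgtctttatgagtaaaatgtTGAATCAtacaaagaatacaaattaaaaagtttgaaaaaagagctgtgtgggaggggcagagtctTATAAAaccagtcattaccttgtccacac
Ppbp, chr5:90768268-90768517, plus strand: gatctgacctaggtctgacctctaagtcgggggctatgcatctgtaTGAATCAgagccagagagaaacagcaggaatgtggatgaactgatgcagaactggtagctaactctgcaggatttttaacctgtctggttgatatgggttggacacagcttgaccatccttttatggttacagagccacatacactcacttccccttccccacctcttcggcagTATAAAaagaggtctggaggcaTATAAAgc
Il1b, chr2:129371140-129371389, minus strand: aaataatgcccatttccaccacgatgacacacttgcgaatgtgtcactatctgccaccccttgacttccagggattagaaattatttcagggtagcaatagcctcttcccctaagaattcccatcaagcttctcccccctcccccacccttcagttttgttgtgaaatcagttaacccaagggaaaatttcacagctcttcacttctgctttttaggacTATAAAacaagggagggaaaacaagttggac
Car9, chr4:43506776-43507025, plus strand: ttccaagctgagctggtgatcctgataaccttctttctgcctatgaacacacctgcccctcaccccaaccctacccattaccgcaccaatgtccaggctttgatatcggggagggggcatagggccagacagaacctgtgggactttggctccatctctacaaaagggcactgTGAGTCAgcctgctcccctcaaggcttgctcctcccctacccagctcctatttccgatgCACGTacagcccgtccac
The AP-1 match TGAATCA lies 94 to 88 bases before the start in Serpinb2 and 204 to 198 bases before it in Ppbp, and Car9 holds TGAGTCA 77 to 71 bases before its start. TATAAA lies 29 to 24 bases before the start of Serpinb2, 31 to 26 before that of Il1b, and 30 to 25 and 8 to 3 before that of Ppbp. Car9 carries ACGTG on the opposite strand, written CACGT, 18 to 14 bases before its start. Counted from the other start of Serpinb2, the same AP-1 match lies 181 to 175 and the same TATAAA 116 to 111 bases before it. None of these matches shares bases with another. Of the 32851 promoter windows of this length, 6.75% hold TGANTCA, 7.59% TATAAA and 16.6% ACGTG. A match describes letters in a window; it does not show that a factor binds there.

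An even spread of unadjusted p-values would put 5% of genes under 0.05, or 2.5% in each direction. Of the 757 genes under 0.05 (4.16%), 217 were higher (1.19%) and 540 lower (2.97%) in NonResponder tumours. Without NonResponder 14, limma again called 0 genes (0%), and the smallest adjusted p was 0.0523. The count under an unadjusted 0.05 was then 1184 (6.51%), with 419 higher (2.3%) and 765 lower (4.2%). Differences above 1 on the log2 scale then numbered 42, of which 41 were lower. The lower side did not hold under every scaling: with each array centred on its median, 429 genes were higher and 231 lower at an unadjusted p under 0.05, although the median of all genes moved by only 0.019. With quantile normalization 277 were higher and 372 lower. Without control IgG 11 the higher genes numbered 138, and without NonResponder 10 they numbered 359. The median difference of all genes was -0.01 (0.00 without NonResponder 14), and 9684 of 18193 genes lay below 0 (8917 without it).

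**Figure D1:**
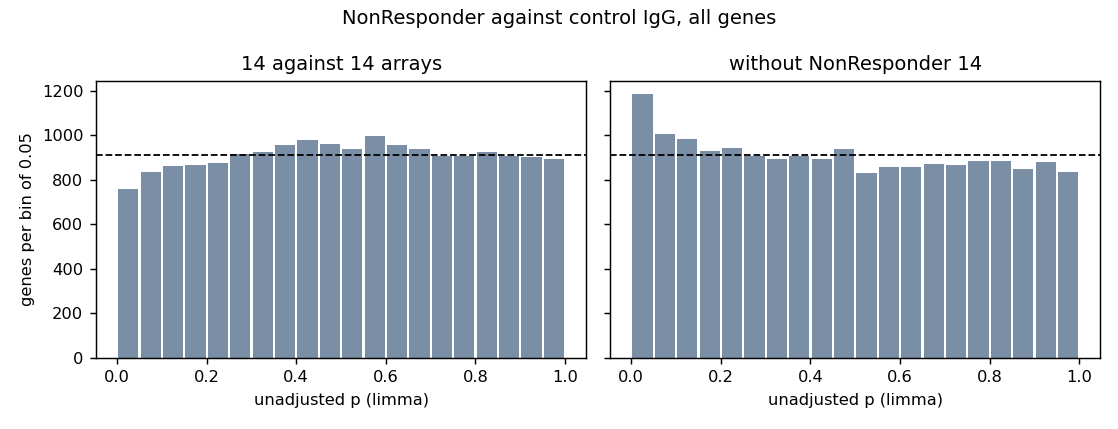
Number of genes (vertical axis) per bin of 0.05 of the unadjusted limma p (horizontal axis) for NonResponder against control IgG, with all 28 arrays on the left and without NonResponder 14 on the right. The dashed line is an even spread over 18193 genes; the lowest bin holds 757 genes on the left and 1184 on the right.

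Genes were then read in 42 lists of cell type markers and pathways. Every list count at an unadjusted p under 0.05 stands beside 2.97% of all genes lower and 1.19% higher. Without NonResponder 14 these shares were 4.2% and 2.3%. With all arrays the lists with the lowest medians were extracellular matrix (-0.62, and -0.84 without NonResponder 14), low oxygen and glycolysis (-0.28 and -0.29), inflammatory cytokines (-0.24 and -0.21) and complement (-0.23 and -0.42). Without NonResponder 14 the macrophage list (-0.15 and -0.36) also lay below low oxygen and inflammatory cytokines. Lists of T cells, B cells, class II presentation and lymph node stroma had medians between 0.21 and 0.28 with all arrays and between -0.09 and 0.00 without NonResponder 14. These are whole-tumour samples, in which fewer cells of a type and less RNA per cell cannot be told apart.

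**Figure D2:**
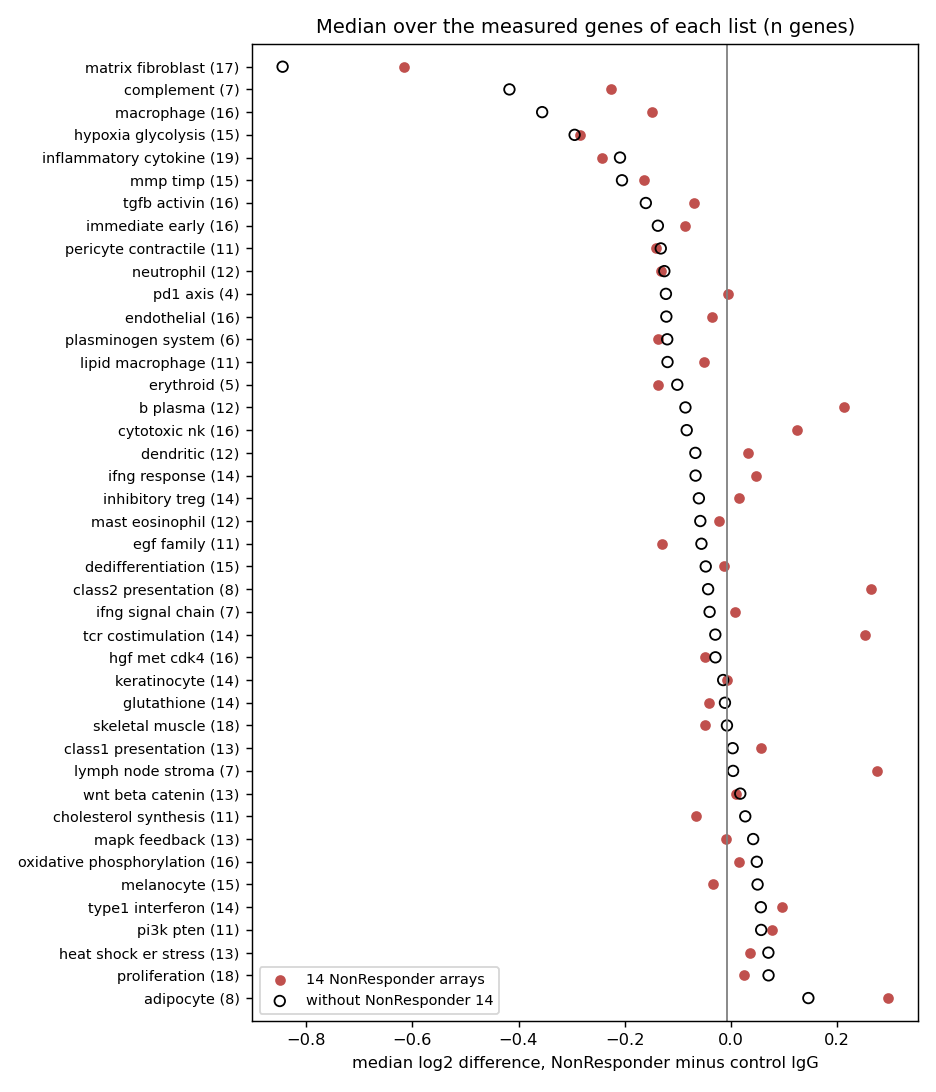
Median log2 difference, NonResponder minus control IgG (horizontal axis), over the measured genes of each list (vertical axis, number of genes in brackets), with all 14 NonResponder arrays (filled) and without NonResponder 14 (open); the vertical line is the median of all genes. Matrix genes lie lowest at -0.62 and -0.84, and the T cell, B cell, class II and lymph node lists lie at the line when the array is left out.

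The antibody's own axis did not differ beyond the spread between arrays. Cd274, which encodes PD-L1, read 8.02 to 9.12 on the control IgG arrays (median 8.47) and 7.66 to 9.81 on the NonResponder arrays (median 8.27), with NonResponder 14 at the top of its group. Its difference was -0.06 ± 0.16 (SE; 95% interval -0.39 to 0.26; limma adjusted p = 0.997), and -0.18 ± 0.12 without that array. Pdcd1, the receptor PD-1, had medians of 5.22 and 5.40 and a difference of 0.16 ± 0.24 (-0.34 to 0.66), which became -0.04 ± 0.16. The second PD-1 ligand Pdcd1lg2 stood at 0.02 ± 0.22 and then -0.18 ± 0.13, and Cd80, which binds PD-L1 on the same cell, at -0.03 ± 0.06 and then -0.07 ± 0.05. Of these 4 genes 0 passed an unadjusted 0.05 in either fit in limma. The groups overlapped for each of them.

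T cell genes of NonResponder tumours showed no difference from control IgG that passed the test, which does not show that the levels are equal. The T cell receptor and costimulation list had 0 of 14 measured genes under an unadjusted 0.05 in limma. Its median went from 0.25 to -0.03 when NonResponder 14 was left out. Above 0 were 13 of its genes with all arrays and 4 without that array, where 8509 and 9276 of 18193 genes were. Cd8a, the CD8 chain of killer T cells, read 5.38 to 6.61 in control IgG tumours (median 5.99) and 5.27 to 9.49 in NonResponder tumours (median 6.06); without NonResponder 14 the highest value was 6.69. Its difference was 0.28 ± 0.27, and 0.03 ± 0.15 without that array. Cd3e, a signalling chain of the T cell receptor, gave 0.25 ± 0.20 and then 0.07 ± 0.10, and Cd8b1, the other CD8 chain, 0.39 ± 0.36 and then 0.07 ± 0.22. Among 16 cytotoxic and natural killer genes the count was likewise 0, with a median of 0.12 (-0.08 without the array). Gzmk, a granule protease, stood at 0.44 ± 0.32 and 0.19 ± 0.22, and the T cell chemokine Ccl5 at 0.37 ± 0.34 and 0.13 ± 0.25. The natural killer receptor Ncr1 stood at -0.13 ± 0.09 and -0.14 ± 0.09. Inhibitory receptor and regulatory T cell genes had 0 of 14 under 0.05, and 1 without the array: Il2ra, the interleukin 2 receptor, at -0.12 ± 0.05 (unadjusted p = 0.0227).

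Interferon and antigen presentation genes gave the same picture. None of the 14 interferon gamma response genes was under an unadjusted 0.05 in limma in either fit, with medians of 0.05 and -0.07. Cxcl10, a chemokine for T cells, read 9.30 to 10.6 against 9.34 to 10.6, a near-complete overlap, and differed by 0.18 ± 0.15. The guanylate-binding proteins Gbp3 and Gbp2b stood at 0.13 ± 0.13 and 0.41 ± 0.42. Type I interferon genes (14 measured, medians 0.10 and 0.06), class I genes (13, medians 0.06 and 0.00) and class II genes (8, medians 0.26 and -0.04) likewise had 0 members under 0.05 in both fits. The 7 measured genes of the interferon gamma signalling chain and the 12 dendritic cell genes had 0 under 0.05 with all arrays, and 2 dendritic cell genes were lower without NonResponder 14. H2-K1, a class I heavy chain, differed by 0.10 ± 0.10 and the peptide transporter Tap2 by 0.21 ± 0.25. Cd74, the class II invariant chain, ranged from 8.93 to 12.7 in control IgG and from 7.65 to 13.9 in NonResponder tumours. Its difference of 0.28 ± 0.48 leaves a wide interval. Over the fits that left out 1 array, Cd74 ran from 0.062 to 0.54 and Gbp2b from 0.17 to 0.61.

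Inflammatory cytokine genes held the largest share of low unadjusted p-values. Of 19 genes, all measured, 11 were lower at an unadjusted p under 0.05 in limma and 0 higher (12 and 0 without NonResponder 14), beside 2.97% of all genes lower; none passed after adjustment. The list's score, the mean log2 value of its genes on an array, ran from 5.66 to 7.15 in control IgG tumours (median 6.36) and from 5.48 to 6.70 in NonResponder tumours (median 5.77). NonResponder 14 had the highest score of its group, and the next was 6.16.

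Il1b, which encodes interleukin 1 beta, read 5.73 to 7.14 on the control IgG arrays (median 6.42) and 5.43 to 6.63 on the NonResponder arrays (median 5.72). The groups overlapped, but 13 of 14 NonResponder arrays lay below the control median. Its difference was -0.54 ± 0.14 (SE; 95% interval -0.82 to -0.26; unadjusted p = 0.000507, limma adjusted p = 0.997), and -0.60 ± 0.13 without NonResponder 14 (adjusted p = 0.225). Ppbp, a platelet and neutrophil chemokine, read 4.32 to 9.01 (median 5.69) against 3.92 to 6.31 (median 4.61), with 13 of 14 below the control median, and differed by -1.38 ± 0.40. Ptgs2, the inducible prostaglandin-forming enzyme, read 4.72 to 9.32 (median 5.78) against 4.28 to 6.70 (median 4.81) and differed by -1.37 ± 0.42. Cxcl5, which draws neutrophils, read 3.14 to 7.02 (median 4.47) against 3.07 to 6.02 (median 3.45) and differed by -1.16 ± 0.37. For Ppbp, Ptgs2 and Cxcl5 the control IgG tumours spread over a wider range than the NonResponder tumours. For Il1b the ranges of the groups were of similar width only with NonResponder 14, the highest of its group. Without it the NonResponder arrays read 5.43 to 6.23, a narrower range than that of control IgG. The other 7 genes under 0.05 were named after their values were seen: the neutrophil chemokines Cxcl2 (-1.18 ± 0.40) and Cxcl3 (-1.12 ± 0.40), the monocyte chemokine Ccl2 (-0.65 ± 0.24), and the interleukin 6 family genes Il6 (-0.92 ± 0.37), Il11 (-0.24 ± 0.09), Lif (-0.20 ± 0.08) and Osm (-0.13 ± 0.06).

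**Figure D3:**
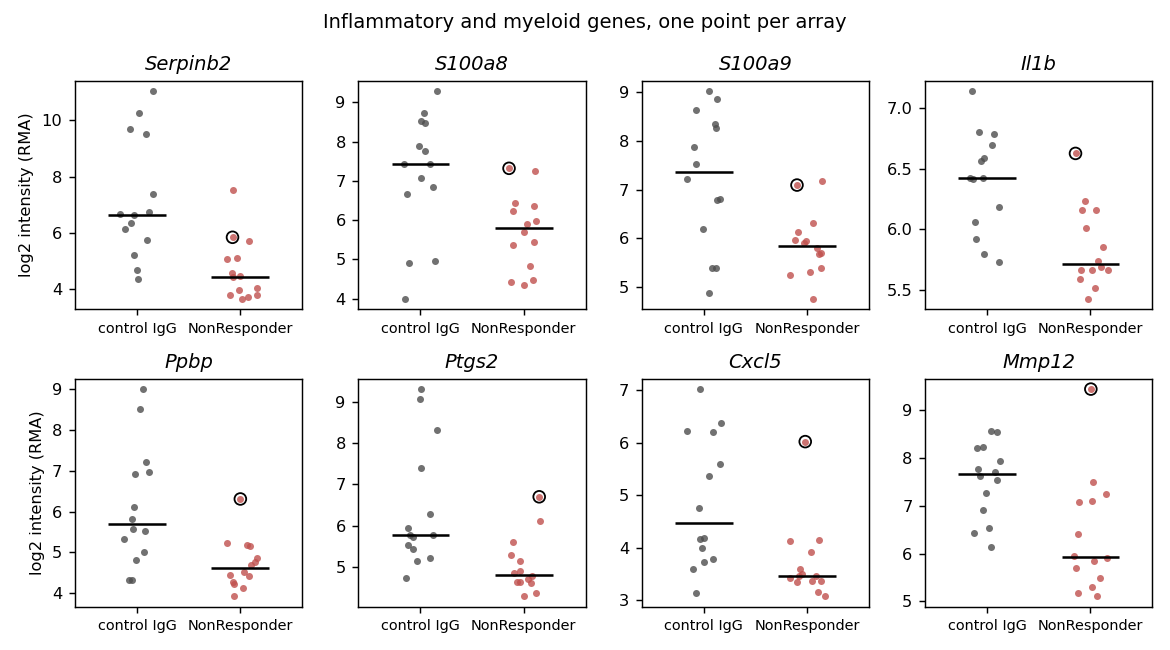
Log2 intensity (RMA) of 8 inflammatory and myeloid genes (vertical axes), one point per array, in control IgG (14) and NonResponder (14) tumours; bars are group medians and the circled point is NonResponder 14. The Serpinb2 median is 6.65 in control IgG and 4.45 in NonResponder tumours, and the groups overlap in every panel.

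Serpinb2 had the largest difference of all genes. It encodes an inhibitor of plasminogen activators made by activated macrophages and stressed epithelium. Values ran from 4.35 to 11.02 in control IgG tumours (median 6.65) and from 3.66 to 7.53 in NonResponder tumours (median 4.45). The difference was -2.48 ± 0.61 (SE; 95% interval -3.72 to -1.23), 5.56-fold lower, at a limma adjusted p of 0.86. It was -2.56 ± 0.62 without NonResponder 14 (adjusted p = 0.258). The control group was far more spread: control IgG arrays 2, 9, 5 and 11 read 11.02, 10.3, 9.69 and 9.51, above every NonResponder array, while control IgG arrays 12 and 1 read 4.35 and 4.67. NonResponder 8 was the highest of its group, and 13 of 14 lay below the control median. In the plasminogen list of 6 measured genes, Serpinb2 and the activator Plau (-0.18 ± 0.08) were under an unadjusted 0.05.

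Among 12 neutrophil genes 3 were lower at an unadjusted p under 0.05 and 0 higher (4 and 0 without NonResponder 14). S100a8 and S100a9 encode the subunits of calprotectin, an abundant calcium-binding protein of neutrophils. S100a9 read 4.89 to 9.01 in control IgG tumours (median 7.37) and 4.77 to 7.17 in NonResponder tumours (median 5.85), and differed by -1.34 ± 0.39 (limma adjusted p = 0.997). S100a8 read 4.00 to 9.28 (median 7.44) against 4.36 to 7.32 (median 5.81) and differed by -1.42 ± 0.47. For both genes 14 of 14 NonResponder arrays lay below the control median and 8 control arrays lay above every NonResponder array, while the lowest control arrays fell among or below them. The gelatinase Mmp9 stood at -0.16 ± 0.08, and the list's median was -0.13 in both fits. Over only those members with a mean of 6 or more, which are fewer, the median was -1.34, the same as the S100a9 difference. The control IgG arrays high for Serpinb2 read 8.85, 8.27, 7.52 and 7.88 for S100a9. Control IgG arrays 7, 10 and 13 read 9.01, 8.63 and 8.33 for S100a9 but 6.73, 6.66 and 6.34 for Serpinb2, so the arrays highest for one gene were not all highest for the other. Neutrophil scores (12 of 14 genes measured) ran from 4.85 to 6.27 in control IgG and from 4.91 to 5.86 in NonResponder tumours. The part of neutrophil content in the cytokine values was not tested.

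Macrophage genes were below 0 in 15 of 16 measured members, and in 16 of 16 without NonResponder 14. Of all genes 53.2% were, and 49.0% without that array. Of the 16 macrophage genes 1 was under an unadjusted 0.05 in limma, and 4 without NonResponder 14, all lower. Of all genes 2.97% were lower at that threshold, and 4.2% without it. The macrophage list medians were -0.15 and -0.36. Macrophage scores ran from 8.58 to 10.9 in control IgG tumours and from 7.79 to 11.2 in NonResponder tumours, with NonResponder 14 highest. The highest control score was that of control IgG 7, which stayed in both fits, and the next control score was 9.64. Cd14, the coreceptor for bacterial lipopolysaccharide, read 7.67 to 9.25 (median 8.62) against 7.48 to 9.17 (median 8.08) and differed by -0.45 ± 0.18. The scavenger receptor Msr1 differed by -0.54 ± 0.28 and the mannose receptor Mrc1 by -0.68 ± 0.36, and without NonResponder 14 by -0.69 ± 0.24 and -0.87 ± 0.32. In the list of lipid-laden macrophage genes 2 of 11 were lower under 0.05 (3 without the array). Mmp12, the macrophage elastase, read 6.14 to 8.57 (median 7.66) against 5.11 to 9.43 (median 5.93), and 13 of 14 NonResponder arrays lay below the control median, NonResponder 14 being the exception. Its difference was -1.15 ± 0.36, and -1.39 ± 0.29 without that array (unadjusted p = 5.76e-05, adjusted p = 0.225). Arg1, arginase of alternatively activated macrophages, differed by -1.13 ± 0.44 and then -1.40 ± 0.37. F13a1, a clotting factor subunit of macrophages in the complement and coagulation list, differed by -1.07 ± 0.41 and then -1.28 ± 0.36; it was the 1 gene of 7 under 0.05. The mast cell histidine decarboxylase Hdc differed by -0.21 ± 0.06 (unadjusted p = 0.000858), the 1 gene of 12 under 0.05 in the mast cell and eosinophil list.

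Extracellular matrix and fibroblast genes were below 0 in 17 of 17 measured members, where 53.2% of all genes were. Lower at an unadjusted p under 0.05 in limma were 3 of them, and 10 without NonResponder 14, beside 2.97% and 4.2% of all genes. Their score ran from 8.17 to 11.7 in control IgG tumours (median 9.73) and from 7.33 to 11.5 in NonResponder tumours (median 8.81). The highest NonResponder score was that of NonResponder 14, and the next was 10.1. The highest control score was that of control IgG 7, which stayed in both fits, and the next control score was 10.5. Lox, the enzyme that cross-links collagen, read 6.44 to 11.2 (median 9.12) against 5.81 to 9.99 (median 7.56) and differed by -1.30 ± 0.46. Dcn, the collagen-binding proteoglycan decorin, read 7.75 to 11.8 (median 9.96) against 5.57 to 12.5 (median 8.14) and differed by -1.22 ± 0.52, or -1.53 ± 0.45 without NonResponder 14. Col3a1, a fibrillar collagen, differed by -1.14 ± 0.51 and Col1a2, a chain of type I collagen, by -0.97 ± 0.52. For all 4 genes the groups overlapped widely, although 11 to 13 of 14 NonResponder arrays lay below the control median.

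Contractile, TGF-beta and protease genes of the stroma pointed the same way in part. Of 11 pericyte and contractile genes 3 were lower under an unadjusted 0.05 (4 without NonResponder 14): the actin-binding protein Tagln (-0.84 ± 0.28), the pericyte regulator Rgs5 (-0.43 ± 0.20) and the pericyte proteoglycan Cspg4 (-0.14 ± 0.06). Of 16 TGF-beta and activin genes 3 were lower (4 without the array): the matricellular target Ccn2 (-0.57 ± 0.21), the activin chain Inhba (-0.37 ± 0.18) and its antagonist Fst (-0.35 ± 0.17). The list's median was only -0.07. Metalloproteinases and their inhibitors had 4 of 15 lower, and 9 without NonResponder 14. Timp1, an inhibitor of metalloproteinases, read 8.67 to 11.3 (median 9.68) against 8.15 to 9.97 (median 9.06), and 13 of 14 NonResponder arrays lay below the control median. It differed by -0.84 ± 0.25, and Mmp10, a stromelysin, by -0.20 ± 0.07. Endothelial genes had 0 of 16 under 0.05 in limma with a median of -0.04, and the capillary sialomucin Emcn stood at -0.31 ± 0.18. In the melanoma dedifferentiation list 2 of 15 were lower, Egfr and Twist1. Twist1, a transcription factor of mesenchymal cells, differed by -0.43 ± 0.16 and then -0.54 ± 0.13.

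**Figure D4:**
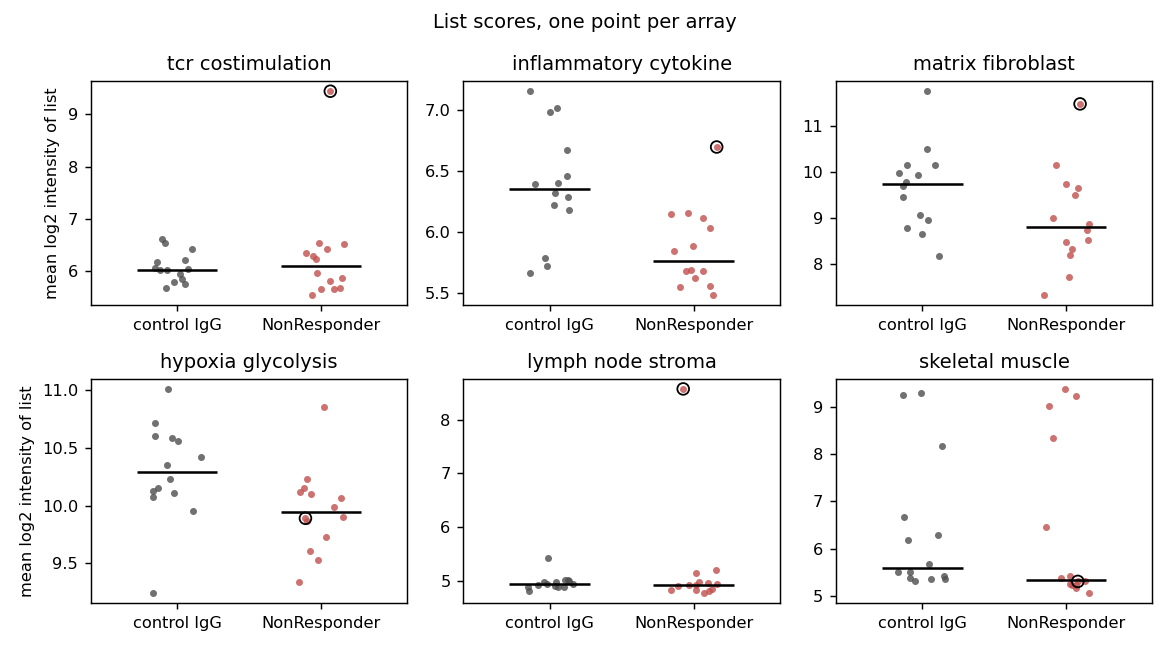
Score of 6 lists, the mean log2 intensity of a list's measured genes (vertical axes), one point per array, in control IgG (14) and NonResponder (14) tumours; bars are medians and the circled point is NonResponder 14. That array lies far above all others for the T cell (9.44) and lymph node stroma (8.57) lists, and not for low oxygen or muscle genes.

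Low oxygen and glycolysis genes were below 0 in 15 of 15 measured members with and without NonResponder 14, where 53.2% and 49.0% of all genes were. Lower at an unadjusted p under 0.05 in limma were 5 of them (6 without it), beside 2.97% and 4.2% of all genes. NonResponder 14 lay near the middle of its group here, so the values hardly depended on it. Egln3, an oxygen sensor that marks hypoxia-inducible factor for decay, read 6.49 to 10.2 in control IgG tumours (median 9.27) and 6.92 to 9.68 in NonResponder tumours (median 8.29), and differed by -0.84 ± 0.30. Car9, the carbonic anhydrase of oxygen-poor tumours, read 6.62 to 10.1 (median 9.12) against 6.69 to 9.60 (median 8.30) and differed by -0.78 ± 0.31. Each group spanned nearly the whole range, and 13 of 14 NonResponder arrays lay below the control median for both genes. The 3 PBS arrays, given no antibody, read 6.34, 8.38 and 9.21 for Egln3 and 6.48, 7.91 and 8.32 for Car9. For both genes every PBS array thus also lay below the control IgG median. The vasodilator peptide Adm differed by -0.73 ± 0.31, the collagen prolyl hydroxylase P4ha1 by -0.27 ± 0.09, and Ndrg1, a stress-induced gene named after its value was seen, by -0.33 ± 0.16.

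Genes of the melanoma cells themselves differed little. Of 15 melanocyte genes 0 were under an unadjusted 0.05 in limma (1 without NonResponder 14: the endothelin receptor Ednrb, -0.81 ± 0.32), and the medians were -0.03 and 0.05. Mlana, a melanosome antigen, read 9.50 to 11.3 (median 10.5) against 6.62 to 11.2 (median 10.3), with NonResponder 14 lowest. Hgf, the transgene's gene, had a median of 11.7 in both groups and a difference of -0.15 ± 0.22 (0.02 ± 0.15 without NonResponder 14). Its receptor Met stood at -0.09 ± 0.12 (0.02 ± 0.07) and the knock-in gene Cdk4 at -0.04 ± 0.11 (0.06 ± 0.06), and in each case NonResponder 14 was the lowest array. No gene of 16 in the Hgf, Met and Cdk4 list was under 0.05 in limma in either fit. Proliferation genes had 0 of 18 under 0.05 (1 without the array), with medians of 0.02 and 0.07, and the replication helicase subunit Mcm2 stood at 0.21 ± 0.11. Oxidative phosphorylation genes (0 of 16, and 1 without the array) had medians of 0.02 and 0.05. Lists of MAP kinase feedback, PI3 kinase signalling, cholesterol synthesis and immediate early genes had 0 genes under 0.05 with all arrays. All 11 measured PI3 kinase genes were above 0 in both fits (medians 0.08 and 0.06), where 8509 and 9276 of 18193 genes were. The ERK phosphatase Dusp5 read -0.12 ± 0.15 and, without NonResponder 14, -0.26 ± 0.07 (unadjusted p = 0.000635). In the Wnt list 3 of 13 were lower, all by little: the pathway antagonists Nkd1 (-0.19 ± 0.08), Dkk2 (-0.26 ± 0.12) and Apcdd1 (-0.17 ± 0.08; 0.022 on another probe set). In the EGF receptor list Errfi1, a feedback inhibitor (-0.28 ± 0.12), and Egfr (-0.13 ± 0.06) were lower and Erbb4 higher (0.16 ± 0.06), the last at a low level (medians 3.26 and 3.39). Of 14 glutathione genes 1 was lower, the synthesis enzyme subunit Gclm (-0.17 ± 0.08).

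Heat shock and endoplasmic reticulum stress genes were, with all arrays, the 1 list of the 42 with more genes higher than lower under an unadjusted 0.05, 2 of 13 (1 without NonResponder 14), beside 1.19% of all genes. Herpud1, which serves the disposal of misfolded proteins, read 9.84 to 10.3 in control IgG tumours (median 9.99) and 9.88 to 11.1 in NonResponder tumours (median 10.3), and 12 of 14 NonResponder arrays lay above the control median. It differed by 0.36 ± 0.09 (unadjusted p = 0.000661, limma adjusted p = 0.997), and by 0.30 ± 0.08 without NonResponder 14. Hspa5, the chaperone BiP, differed by 0.11 ± 0.05, and by -0.13 on another of its probe sets.

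The genes with the smallest unadjusted p on the higher side, among those with a mean of 6 or more, were small in size. Ttll1, which belongs to the tubulin tyrosine ligase-like enzymes, read 7.62 to 8.28 in control IgG tumours (median 8.11) and 8.002 to 8.63 in NonResponder tumours (median 8.36). Of the 14 NonResponder arrays 10 lay above every control array, and the difference was 0.28 ± 0.07 (95% interval 0.15 to 0.41; limma adjusted p = 0.829). The 3 PBS arrays, given no antibody, read 8.22, 8.33 and 8.42 for Ttll1, also above the control IgG median. Ptgir, the prostacyclin receptor, read 5.53 to 6.84 (median 6.17) against 6.24 to 7.60 (median 6.66) and differed by 0.63 ± 0.15. All 14 of 14 NonResponder arrays lay above its control median, and the PBS arrays, at 5.35, 6.34 and 6.79, lay on both sides of it. Dusp16, a phosphatase of stress-activated kinases, read 7.11 to 7.67 (median 7.46) against 7.42 to 7.92 (median 7.74) and differed by 0.28 ± 0.07. The rest were Rabggta (0.45 ± 0.12), an enzyme subunit that attaches lipid anchors to Rab proteins, the microtubule-binding Map7 (0.30 ± 0.08), the mitotic kinase activator Bora (0.19 ± 0.05; -0.034 on another probe set), Tspyl4 (0.22 ± 0.06), Plcxd2 (0.35 ± 0.10) and the ceramidase Acer2 (0.20 ± 0.06). Herpud1 belongs here too.

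Tex13b, a dim gene named after its value was seen, had the smallest p of all. It read 4.63 to 6.23 (median 4.98) against 4.57 to 7.05 (median 6.23), with 13 of 14 NonResponder arrays above the control median, and differed by 0.93 ± 0.21 (unadjusted p = 9.93e-05, limma adjusted p = 0.829). Without NonResponder 14 it differed by 1.04 ± 0.18, just outside the threshold (adjusted p = 0.0523).

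On the lower side the smallest p-values, besides Il1b, S100a9 and Timp1, belonged to genes of several roles. Gja1, the gap junction protein connexin 43, read 8.33 to 10.3 in control IgG tumours (median 9.21) and 7.82 to 9.55 in NonResponder tumours (median 8.48), and differed by -0.77 ± 0.21 (95% interval -1.19 to -0.35; limma adjusted p = 0.997). Pdpn, the podoplanin of lymphatic vessels and fibroblasts, read 7.31 to 10.2 (median 8.59) against 5.50 to 10.0 (median 7.16) and differed by -1.37 ± 0.40. In both genes 13 of 14 NonResponder arrays lay below the control median. Tmem45a differed by -1.04 ± 0.30, the fibroblast growth factor family gene Fgf11 by -0.68 ± 0.19, the collagen prolyl hydroxylase P4ha2 by -0.60 ± 0.17, the kinase inhibitor Camk2n1 by -0.30 ± 0.08 and the neuronal splicing factor Rbfox3 by -0.23 ± 0.07. Without NonResponder 14 the size grew for Pdpn (-1.59 ± 0.35), Tmem45a (-1.20 ± 0.27) and P4ha2 (-0.67 ± 0.16), at adjusted p-values of 0.225, 0.25 and 0.25.

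Markers of neighbouring tissues differed between single arrays more than between groups. Skeletal muscle scores (18 of 18 genes measured) ran from 5.31 to 9.30 in control IgG tumours and from 5.06 to 9.38 in NonResponder tumours, with 0 genes under an unadjusted 0.05 in limma. Lymph node stroma scores (7 of 10 measured) ran from 4.81 to 5.44 and from 4.79 to 5.21, apart from 8.57 in NonResponder 14. B cell and plasma cell scores (12 of 14 measured) ran from 6.44 to 7.40 and from 6.27 to 6.93, apart from 10.9 in that array, and its adipocyte score was 8.85 against at most 7.66 in the others. The B cell, adipocyte and erythroid lists had 0 genes under 0.05 in limma, and of 14 keratinocyte genes Krt6a did (-0.15 ± 0.06). Ltb, a lymphotoxin chain of lymphocytes, differed by 0.41 ± 0.41, and by 0.04 ± 0.22 without NonResponder 14.

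The tumours that regressed under the same antibody in this title range (Responder, 17 arrays, 0 with Glycam1 of 8 or more) and 3 PBS tumours put these levels in context. Comparisons of NonResponder tumours with either group share the NonResponder arrays. NonResponder against Responder called 454 genes in limma (2.5%), 377 higher (2.07%) and 77 lower (0.423%), and 4147 without NonResponder 14 (22.8%), 2514 higher (13.8%) and 1633 lower (8.98%). The T cell, cytotoxic and interferon gamma lists then held 12 of 14, 12 of 16 and 12 of 14 genes lower in NonResponder than in Responder tumours, against 0 of each when NonResponder was set against control IgG. With all arrays those counts were 0, 1 and 4, so they rest on leaving out 1 array. The T cell list also held 1 gene higher in NonResponder than in Responder tumours, in both fits.

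Cd8a had a median of 5.99 in control IgG, 6.06 in NonResponder and 6.97 in Responder tumours; NonResponder fell below Responder by 1.08 without NonResponder 14 (limma adjusted p = 0.005) and stood at -0.83 with it (adjusted p = 0.0796). Ccl5 medians were 8.64, 9.02 and 10.1, and without the array NonResponder fell below Responder by 1.52 (adjusted p = 0.00515). Cd274 medians were 8.47, 8.27 and 8.75 and Pdcd1 medians 5.22, 5.40 and 6.17; without the array these genes were lower in NonResponder than in Responder tumours by -0.65 (adjusted p = 0.00858) and -1.04 (adjusted p = 0.00472). For this group of genes the control IgG and NonResponder values lay side by side and the Responder values reached higher.

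Serpinb2, S100a8, S100a9 and Gja1 gave another order. Serpinb2 medians were 6.65 in control IgG, 4.45 in NonResponder and 4.33 in Responder tumours, and NonResponder minus Responder was -0.07 (limma adjusted p = 0.939). S100a8 medians were 7.44, 5.81 and 5.64, S100a9 medians 7.37, 5.85 and 5.80 and Gja1 medians 9.21, 8.48 and 8.20. Their NonResponder minus Responder differences were -0.31, -0.22 and -0.03 (adjusted p = 0.666, 0.715 and 0.937). Here both groups given the antibody against PD-L1 had medians below that of control IgG. Both are set against the same control IgG arrays, and these genes were named by their NonResponder differences from those arrays. The low Responder medians are therefore not independent of the NonResponder result. The 3 PBS arrays read 4.29, 6.43 and 8.70 for Serpinb2, a span as wide as most of the control IgG group. They read 5.14, 6.49 and 6.89 for S100a8 and 4.91, 6.36 and 6.55 for S100a9. For both S100 genes every PBS array, given no antibody, thus also lay below the control IgG median. For Gja1 the PBS arrays read 9.23, 9.24 and 9.66, above the control IgG median. In lists of matrix, low oxygen and macrophage genes the median difference of Responder from control IgG was 0.07, 0.01 and 0.52, and that of NonResponder from control IgG -0.62, -0.28 and -0.15. Without NonResponder 14, 7 of 17, 3 of 15 and 9 of 16 of their genes were lower in NonResponder than in Responder tumours in limma and 0 higher, beside 8.98% of all genes lower; with all arrays 0 of each passed. Lox medians were 9.12, 7.56 and 8.13, Car9 medians 9.12, 8.30 and 9.11, and Mmp12 medians 7.66, 5.93 and 7.31. For each of these the NonResponder median was the lowest of the control IgG, NonResponder and Responder medians. The PBS arrays read 8.36, 8.99 and 9.83 for Lox and 5.47, 7.48 and 7.90 for Mmp12. For Car9 they read 6.48, 7.91 and 8.32, and the middle one lay below the NonResponder median. Mmp12, which is in the lipid-laden macrophage list, passed against Responder without NonResponder 14 (-1.63, limma adjusted p = 0.0163) and not with it (-1.39, adjusted p = 0.0798), and Lox and Car9 passed in neither fit.

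**Figure D5:**
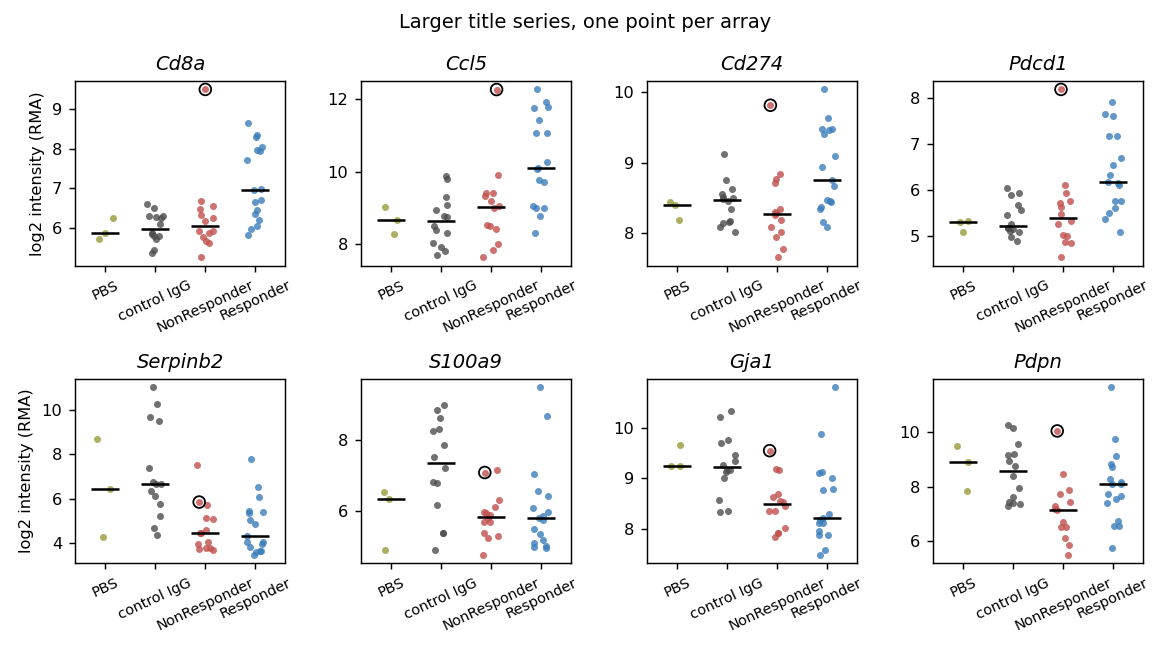
Log2 intensity (RMA) of 8 genes (vertical axes), one point per array, in PBS (3), control IgG (14), NonResponder (14) and Responder (17) tumours of the larger title range; bars are medians and the circled point is NonResponder 14. Cd8a medians are 5.99, 6.06 and 6.97 in control IgG, NonResponder and Responder tumours, while Serpinb2 medians are 6.65, 4.45 and 4.33.

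The spread within groups was similar once NonResponder 14 was left out. The ratio of the NonResponder SD to the control IgG SD had a median of 1.22 over all genes, and of 1.04 without the array. Without it the ratio, as a list median, was 0.82 for inflammatory cytokine, 0.79 for neutrophil and 0.75 for macrophage genes. For pericyte genes it was 0.72, for type I interferon genes 0.62 and for T cell receptor genes 1.05. The control side kept all its arrays, among them control IgG 7. That array had the highest control score for macrophage (10.9, next 9.64) and pericyte genes (9.05, next 7.69). Ratios without control IgG 7 as well were not computed, so these do not show which group was more uniform. These ratios are a description with no test.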

How the data were processed

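Gene expression of 90 subcutaneous melanoma allografts was measured on Affymetrix mouse arrays, 1 per sample, from 800 ng of RNA. The deposited values are log2 intensities that the authors normalized with RMA (robust multi-array average), per the submitters' processing notes, which also name limma; versions and which arrays were normalized together are not given in the sources used here. Of 45101 probe sets, 34945 carried 1 gene symbol. For each of 18193 genes the probe set brightest on average over the 90 arrays was used. The 28 arrays were fitted in limma 3.58.1 (R 4.3.3; lmFit, eBayes), with Benjamini-Hochberg adjustment over all genes and a two-sided threshold of 0.05; NonResponder against Responder was fitted with the 3 groups together. The procedure was tested on simulated data. The text names the 10 genes a direction with the smallest unadjusted p among those with a mean of 6 or more (unnamed transcripts and antigen receptor segments skipped), up to 4 genes a list by the same p, and Cd274, Pdcd1, Pdcd1lg2, Cd80, Hgf, Met, Cdk4 and Glycam1 throughout; other names were chosen after their values were seen. Members and lists were chosen with earlier results of these data known. Promoter sequences are RefSeq's. Alternatives were other normalizations, filters, probe set choices, sample sets and weights.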

Additional observations from a re-analysis of the deposited data

How the results depend on the processing

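Other settings of NonResponder against control IgG were fitted in limma. Called genes stayed at 0 higher and 0 lower under every alternative but these: array weights called 4 higher (Tex13b, Dusp16, Herpud1, Ttll1) and 5 lower (Mmp12, Rasl11a, Pf4, Il1b, Gja1), at adjusted p from 0.035 to 0.0484, with a weight of 0.0955 for NonResponder 14. Leaving out that array with a trended, robust eBayes, an alternative added after seeing the data, called 1 higher, Tex13b (adjusted p = 0.0479). Leaving out each array in turn called 0 genes; the share of genes higher at an unadjusted p under 0.05 then ran from 0.759% to 2.3% and that of genes lower from 2.15% to 4.2%, the lowest without control IgG 11 and the highest without NonResponder 14. The share higher was 1.19% in the reported fit (217 of 18193 genes), 2.3% (419) without NonResponder 14, 3.14% (572) without the Ckm-high arrays, 3.88% (706) without either (added after seeing the data), 2.19% (398) with the trended fit without NonResponder 14, 2.36% (429) with median centring and 4.62% (841) with array weights. The share lower was 2.97% (540), and 1.27% (231) with median centring, 1.68% of 11217 genes with a mean of 6 or more and 6.13% (1115) with array weights. With only those brighter genes the neutrophil list median was -1.34 and the keratinocyte one -0.09, over fewer genes. No paired analysis was possible because the labels give no replicate numbers that tie the groups together.

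Differences near 0 changed sign under some settings; none of these passed the test, and the cause was not tested. Without NonResponder 14, with either eBayes, they were Pdcd1 (-0.041), Pdcd1lg2 (-0.18), Hgf (0.017), Met (0.016), Cdk4 (0.061) and Glycam1 (-0.045). Without the Ckm-high arrays they were Cd274 (0.19) and Cd80 (0.011). Without both kinds of array they were Cd274 (0.049), Pdcd1lg2 (-0.0031), Hgf (0.054), Met (0.051), Cdk4 (0.026) and Glycam1 (-0.067). With all 90 arrays they were Pdcd1 (-0.016), Pdcd1lg2 (-0.15), Hgf (0.094), Met (0.058) and Cdk4 (0.028). With quantile normalization it was Cd80 (0.00034). With the probe set of highest SD they were Bora (-0.034), Hgf (0.021), Ccnd1 (-0.11), Apcdd1 (0.022) and Hspa5 (-0.13). With array weights they were Pdcd1lg2 (-0.076), Met (0.035), Cdk4 (0.024) and Glycam1 (-0.060). Over the fits that left out 1 array, Pdcd1 ran from -0.041 to 0.24, Pdcd1lg2 from -0.18 to 0.076, Hgf from -0.24 to 0.017, Met from -0.12 to 0.016, Cdk4 from -0.070 to 0.061 and Glycam1 from -0.045 to 0.56.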
